A study of Mus musculus with 6 samples.

Results

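The genes described here are 36 targets and regulators of hypoxia-inducible factor 1 (HIF-1) that lie outside glycolysis. They were taken by gene symbol from a fixed list. That list was drawn up with earlier results of these data known, so counts over it are a description. All 36 were found among the 55487 genes listed. They comprise 6 genes for mitochondrial proteins, 4 glycogen genes, 7 genes for secreted or lipid-handling proteins, 12 genes for signalling and transcription, and 7 HIF subunits and regulators. The samples were CD8+ T cells of C57BL/6 mice, a lymphocyte class that recognises and kills altered or infected cells. RNA was sequenced from 3 libraries kept with NaCl (control) and 3 libraries given 5 mM itaconate, each after 48 h. Itaconate is a dicarboxylic acid that activated macrophages make in large amounts from a tricarboxylic acid cycle intermediate. No source used here states whether and how the cells were activated, the NaCl concentration or the age of the animals. Whether each replicate is its own mouse or culture is not stated in the labels. The spread behind every p-value is thus that of these 6 libraries, and it could be technical.

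HIF-1 is a pair of proteins, the oxygen-labile subunit encoded by Hif1a and its stable partner encoded by Arnt. When oxygen is present, prolyl hydroxylases (Egln genes) mark the labile subunit, and the von Hippel-Lindau protein (Vhl) then directs it to the proteasome. These hydroxylases use 2-oxoglutarate as a co-substrate, so small dicarboxylic acids can affect them. In activated T cells HIF-1 also accumulates in normal oxygen, and besides the glycolytic enzymes it drives genes for the removal of mitochondria, glycogen storage, vessel growth and lipid storage. Transcript levels of Hif1a say little about the amount of the protein, which is controlled mainly by its degradation.

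Of the 36 genes, 33 had enough reads to be tested, and 13 of them were lower with itaconate while 1, Rragd, was higher. A change was called at an adjusted p under 0.05 in edgeR's quasi-likelihood test, adjusted over all 12350 genes tested. Across those 12350 genes, 12.0% were called in either direction, 5.36% as lower and 6.68% as higher. In all, 825 of the 1487 called genes were higher, beside 133 of 340 in a limma fit on log2(TPM + 1), the length-scaled unit, and 325 of 567 in edgeR with effective length as an offset. The 13 that fell were Bnip3, Bnip3l, Fam162a, Ak4, Gbe1, Hilpda, Ndrg1, Ero1l, Ankrd37, Mxi1, Bhlhe40, Zfp395 and Vhl. Their falls were modest, from 1.24-fold to 1.95-fold, and 7 of them reached 1.5-fold. The median log2 fold change of the 33 tested genes was -0.23, beside 0.01 over all genes tested. A fitted value below 0 was found for 24 of the 33 and for 48.6% of all genes tested. In 15 of the 33 the 3 control and 3 itaconate libraries did not overlap, 14 of them with itaconate lower, while 31.2% of all tested genes did not overlap and 14.4% did so with itaconate lower. Levels are counts per 1000000 (CPM), the expected counts over each library's total, scaled between libraries by the trimmed mean of M-values. In bulk RNA, fewer cells that express a gene and less of its RNA per cell cannot be told apart.

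**Figure D1:**
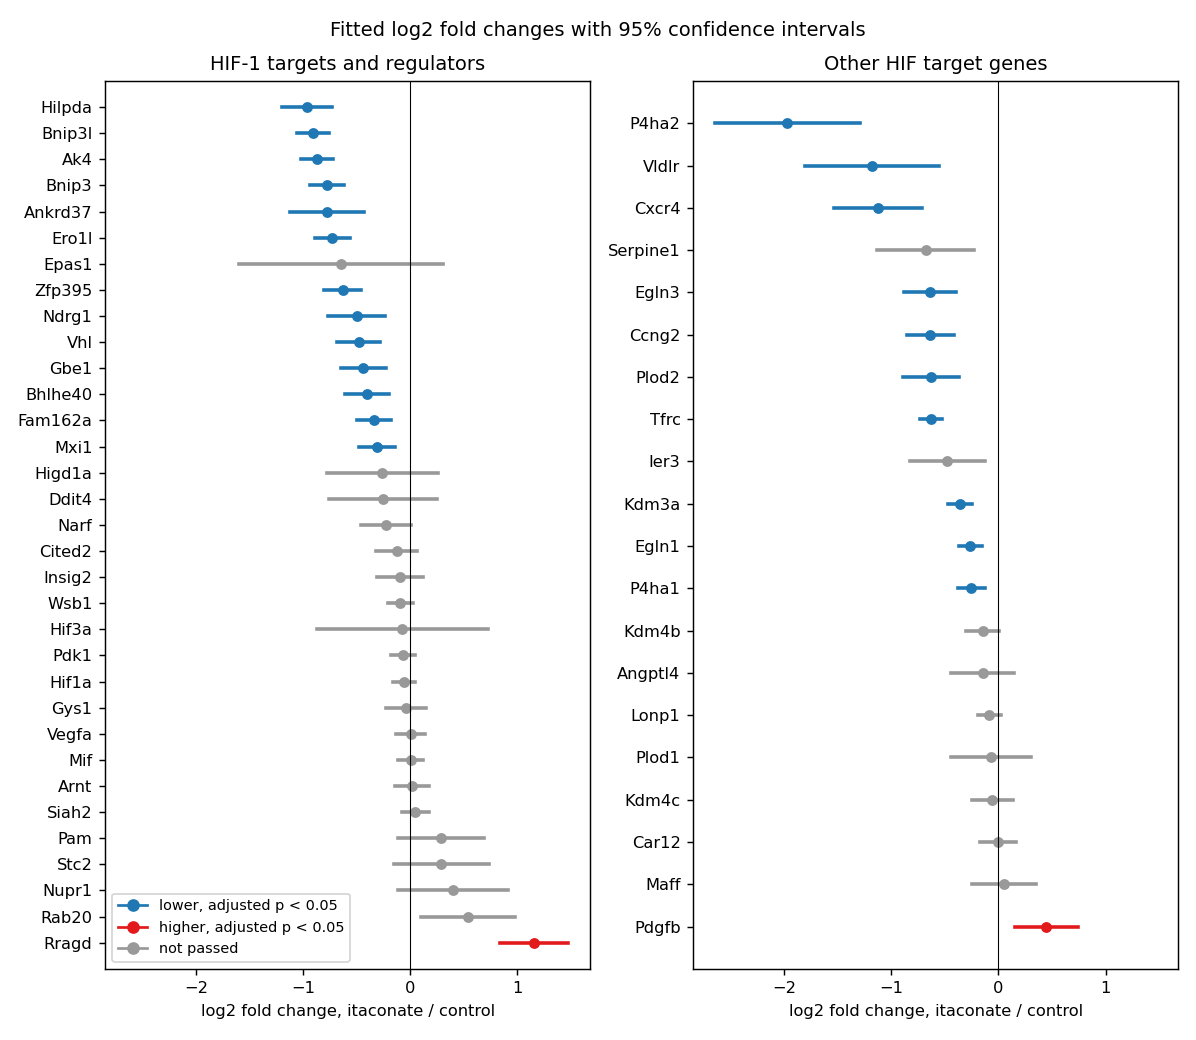
Fitted log2 fold change (itaconate over control, horizontal axes) with its 95% confidence interval as a bar, for the 33 tested HIF-1 targets and regulators (left) and for 20 other tested HIF target genes (right), in order of size and coloured by call. On the left the 13 genes called lower lie between -0.31 and -0.96 and Rragd lies at 1.16; on the right 10 genes lie below 0 as called and Pdgfb above it.

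The libraries held between 18280217 and 31643408 expected counts, and their scaling factors ran from 0.987 to 1.017. Markers of CD8+ T cells summed to 1961 to 2018 CPM in the control libraries and to 2201 to 2221 CPM with itaconate, and none of the 7 was under 111 CPM in any library. Cd8a itself was higher with itaconate, with a mean of 645 beside 497 CPM (adjusted p = 2.97e-04). The 15 markers of B cells, myeloid cells and other cell types summed to between 8.91 and 16.9 CPM in the control libraries and between 10.6 and 21.0 CPM with itaconate. Of these 15, between 2 and 5 were at 0 in each library, and the highest single value was 5.83 CPM. The part of the higher CD8 marker sum in the results was not tested.

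HIF-1 binds DNA at a core of 5 bases, ACGTG or GCGTG, on either strand. The windows from 250 bases before to 50 bases after the annotated start were read from RefSeq (build GRCm38.p6), and 30 of the 36 genes had one. At least 1 core lay in a window of 26 of these 30 genes (86.7%), beside 68.7% of the 9145 tested genes with a window and 46.7% of all 27025 genes with one. At least 2 core positions were found in 70.0% of the 30 genes and in 39.5% of the tested genes. The ACGTG core is also part of CACGTG, the E-box bound by MYC and other factors, where it is read on both strands and counts as 2 positions; CACGTG lay in a window of 8 of the 30 genes (26.7%), beside 12.1% of the tested genes and 8.09% of all genes with a window. A core was found for 7 of the 9 genes called lower that have a window and for 16 of 17 that did not pass the test. The match is of letters only, and was not compared with any binding data. The windows of 5 genes that fell are printed first, because they are among the genes with the most cores or the firmest falls. Pdk1 follows as a well-known target with cores that did not pass the test, and Rragd as the gene that rose, with none in its window. Each is written 5′ to 3′ on the gene's strand, and capitals mark the core positions on either strand.
Bnip3 (chr7:138909457-138909756, minus strand): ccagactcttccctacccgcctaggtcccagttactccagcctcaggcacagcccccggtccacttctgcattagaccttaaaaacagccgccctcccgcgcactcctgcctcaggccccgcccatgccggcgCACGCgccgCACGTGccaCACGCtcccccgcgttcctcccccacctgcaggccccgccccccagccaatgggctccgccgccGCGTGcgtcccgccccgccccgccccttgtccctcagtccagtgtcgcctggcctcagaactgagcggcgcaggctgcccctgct
Fam162a (chr16:36071512-36071811, minus strand): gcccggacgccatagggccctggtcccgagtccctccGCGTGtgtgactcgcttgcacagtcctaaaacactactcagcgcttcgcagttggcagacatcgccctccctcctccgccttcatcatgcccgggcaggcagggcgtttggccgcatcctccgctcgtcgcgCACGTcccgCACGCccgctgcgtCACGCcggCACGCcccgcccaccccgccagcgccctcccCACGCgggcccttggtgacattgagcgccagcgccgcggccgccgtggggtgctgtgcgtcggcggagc
Hilpda, second listed start (chr6:29272376-29272675, plus strand): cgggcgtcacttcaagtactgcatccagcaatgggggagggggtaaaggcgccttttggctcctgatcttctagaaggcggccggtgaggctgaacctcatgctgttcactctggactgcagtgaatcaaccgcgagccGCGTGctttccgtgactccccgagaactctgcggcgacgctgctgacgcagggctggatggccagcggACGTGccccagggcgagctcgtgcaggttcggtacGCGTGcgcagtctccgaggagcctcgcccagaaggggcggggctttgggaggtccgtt
Ero1l, listed as Ero1a (chr14:45318523-45318822, minus strand): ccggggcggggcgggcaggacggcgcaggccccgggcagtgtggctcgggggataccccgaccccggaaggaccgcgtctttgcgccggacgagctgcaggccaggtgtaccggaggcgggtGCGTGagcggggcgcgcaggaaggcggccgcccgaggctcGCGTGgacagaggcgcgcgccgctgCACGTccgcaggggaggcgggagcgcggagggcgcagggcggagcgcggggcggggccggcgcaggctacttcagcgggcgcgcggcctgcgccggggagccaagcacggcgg
Ankrd37 (chr8:45999801-46000100, minus strand): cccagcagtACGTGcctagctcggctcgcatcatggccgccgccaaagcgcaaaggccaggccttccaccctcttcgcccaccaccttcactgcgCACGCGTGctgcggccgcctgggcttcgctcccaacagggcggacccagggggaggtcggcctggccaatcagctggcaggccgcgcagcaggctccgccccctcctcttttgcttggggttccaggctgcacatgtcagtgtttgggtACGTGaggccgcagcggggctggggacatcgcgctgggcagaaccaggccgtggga
Pdk1, first listed start (chr2:71872974-71873273, plus strand): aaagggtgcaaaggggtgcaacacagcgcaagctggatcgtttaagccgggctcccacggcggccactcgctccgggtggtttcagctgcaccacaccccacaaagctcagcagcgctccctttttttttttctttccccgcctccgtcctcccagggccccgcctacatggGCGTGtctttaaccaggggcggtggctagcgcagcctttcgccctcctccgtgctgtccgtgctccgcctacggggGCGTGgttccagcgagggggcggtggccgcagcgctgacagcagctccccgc
Rragd (chr4:32982748-32983047, plus strand): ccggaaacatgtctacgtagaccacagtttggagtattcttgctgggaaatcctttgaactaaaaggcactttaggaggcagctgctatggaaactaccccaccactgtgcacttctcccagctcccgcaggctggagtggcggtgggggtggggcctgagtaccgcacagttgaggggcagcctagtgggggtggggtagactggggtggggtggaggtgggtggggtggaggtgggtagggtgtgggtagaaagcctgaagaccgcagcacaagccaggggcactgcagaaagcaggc
Bnip3 held 5 core positions, among them a CACGTG, and Fam162a held 6, while Hilpda held 3, Ero1l 3, Ankrd37 4 and Pdk1 2. The first listed start of Hilpda, not printed, held 1. Of the other genes not printed, Gbe1 and Vhl, both called lower, held none. Wsb1 and Rab20, which did not pass the test, held 6 and 5 in their first listed windows.

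**Figure D2:**
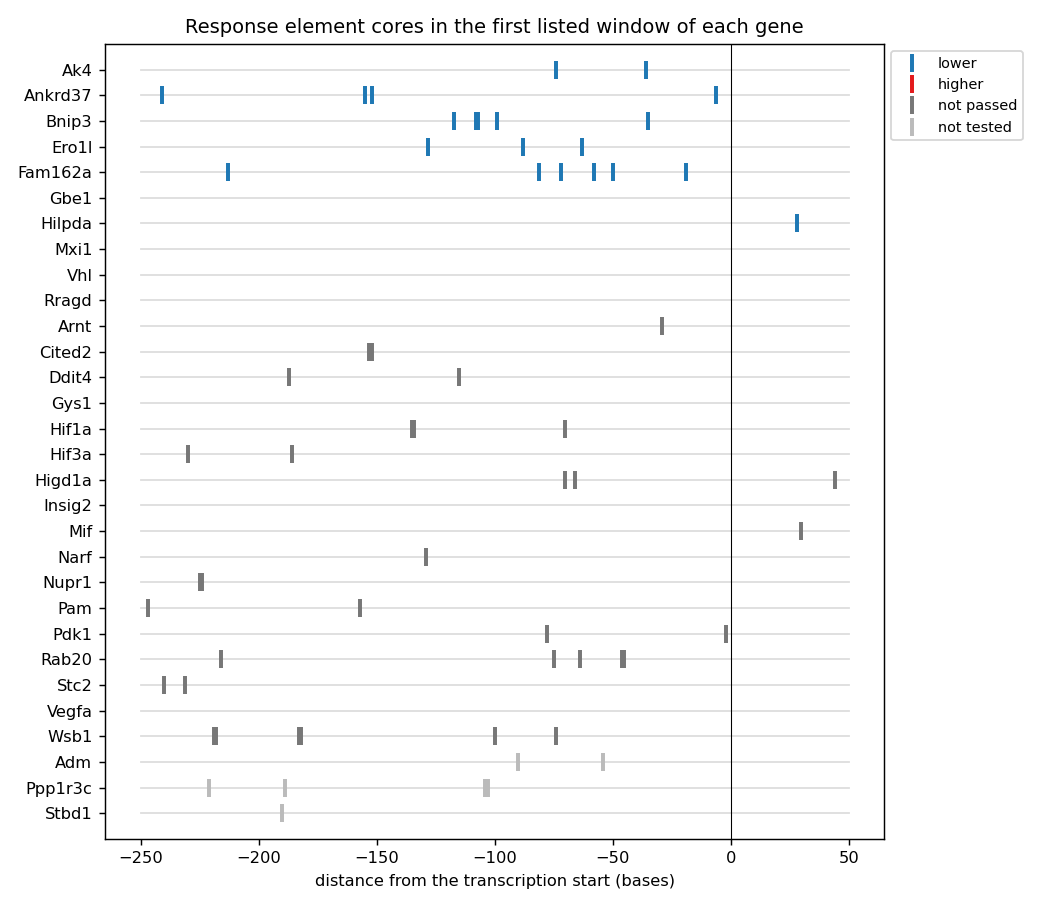
Positions of the ACGTG or GCGTG core in the first listed RefSeq window of each of 30 genes, as distance in bases from the annotated start (horizontal axis), with a row per gene and ticks coloured by its call. Genes called lower and genes that did not pass the test both carry cores. The rows of Rragd, of Gbe1, Vhl and Mxi1 (called lower) and of Gys1, Vegfa and Insig2 (not passed) are empty.

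Among the 6 genes for mitochondrial proteins, 4 fell with itaconate, and the largest falls were in Bnip3l, Ak4 and Bnip3. Bnip3 and Bnip3l encode receptors on the outer mitochondrial membrane that hand mitochondria to autophagosomes. Bnip3 (chr7:138890836-138909519 on the minus strand, GRCm38) stood at 91.4, 88.3 and 95.3 CPM in control replicates 1, 2 and 3 and at 48.2, 60.0 and 52.1 CPM in itaconate replicates 1, 2 and 3. The groups did not overlap, and the fall was 1.72-fold (log2 fold change -0.78 ± 0.073 SE, adjusted p = 2.19e-05). Its paralogue Bnip3l (chr14:66985239-67008877 on the minus strand) stood at 105, 105 and 99.4 CPM in the control libraries and at 50.6, 62.0 and 52.5 CPM with itaconate, again in replicate order. Every itaconate library lay far below every control library, a fall of 1.88-fold (log2 fold change -0.91 ± 0.071 SE, adjusted p = 4.30e-06). Both calls held in all 16 alternative analyses. Ak4 encodes an adenylate kinase of the mitochondrial matrix (chr4:101419277-101466995 on the plus strand). It stood at 56.6, 56.2 and 58.1 CPM in the control libraries and 28.4, 32.3 and 32.8 CPM with itaconate. The control libraries lay within 2 CPM of each other and well above the others, a fall of 1.83-fold (log2 fold change -0.87 ± 0.068 SE, adjusted p = 4.30e-06). When each gene's effective length, the bases at which a fragment can start, was used as an offset, the adjusted p for Ak4 was 0.0522.

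Fam162a, a mitochondrial protein linked to cell death in low oxygen, fell less. Its levels were 74.9, 85.6 and 89.7 CPM in the control libraries and 60.3, 70.5 and 67.0 CPM with itaconate. The highest itaconate library stayed below the lowest control library, and the fall was 1.27-fold (log2 fold change -0.34 ± 0.076 SE, adjusted p = 0.0110). Without control replicate 2 the adjusted p was 0.0535. Higd1a encodes an inner-membrane protein that associates with respiratory complexes, and did not pass the test. It stood at 63.8, 94.7 and 98.0 CPM in the control libraries and 62.4, 74.2 and 77.1 CPM with itaconate. Control replicate 1 lay among the itaconate libraries and the other control libraries above them (log2 fold change -0.26, interval -0.78 to 0.26, adjusted p = 0.489). Without control replicate 1 the log2 fold change was -0.44 and the adjusted p was 0.00273. Pdk1, the kinase that keeps pyruvate from entering the mitochondrial citrate cycle, is among the best-known HIF-1 targets. Its CPM overlapped, at 184, 164 and 171 CPM in the control libraries and 158, 168 and 168 CPM with itaconate. The interval of its log2 fold change was -0.19 to 0.04 (adjusted p = 0.420).

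Of 22 other mitophagy and autophagy genes that were tested, 1 was called, beside 12.0% of all genes tested. This was Nbr1, an autophagy cargo receptor, which fell from 37.9 ± 2.11 to 29.5 ± 0.967 CPM (mean ± SD of 3 libraries, adjusted p = 0.00468). Its adjusted p was 0.117 on log2(TPM + 1), 0.117 on log2(TPM + 0.1) and 0.0937 with the effective length offset. The median log2 fold change of these 22 genes was 0.01. Pink1, the kinase that marks damaged mitochondria on the pathway that does not use the Bnip3 receptors, was not called (log2 fold change -0.08, interval -0.34 to 0.19, adjusted p = 0.751). Among the paralogues of the mitochondrial genes, Pdk2 (adjusted p = 0.619) and Pdk3 (adjusted p = 0.0514) were not called. Pdk3 lay at the threshold, with means of 66.8 ± 3.18 CPM in the control libraries and 58.7 ± 0.923 CPM with itaconate. Pdk3 was called in 5 of the 16 alternatives. Of these, 1 left out a library, control replicate 3, with an adjusted p of 0.0292.

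**Figure D3:**
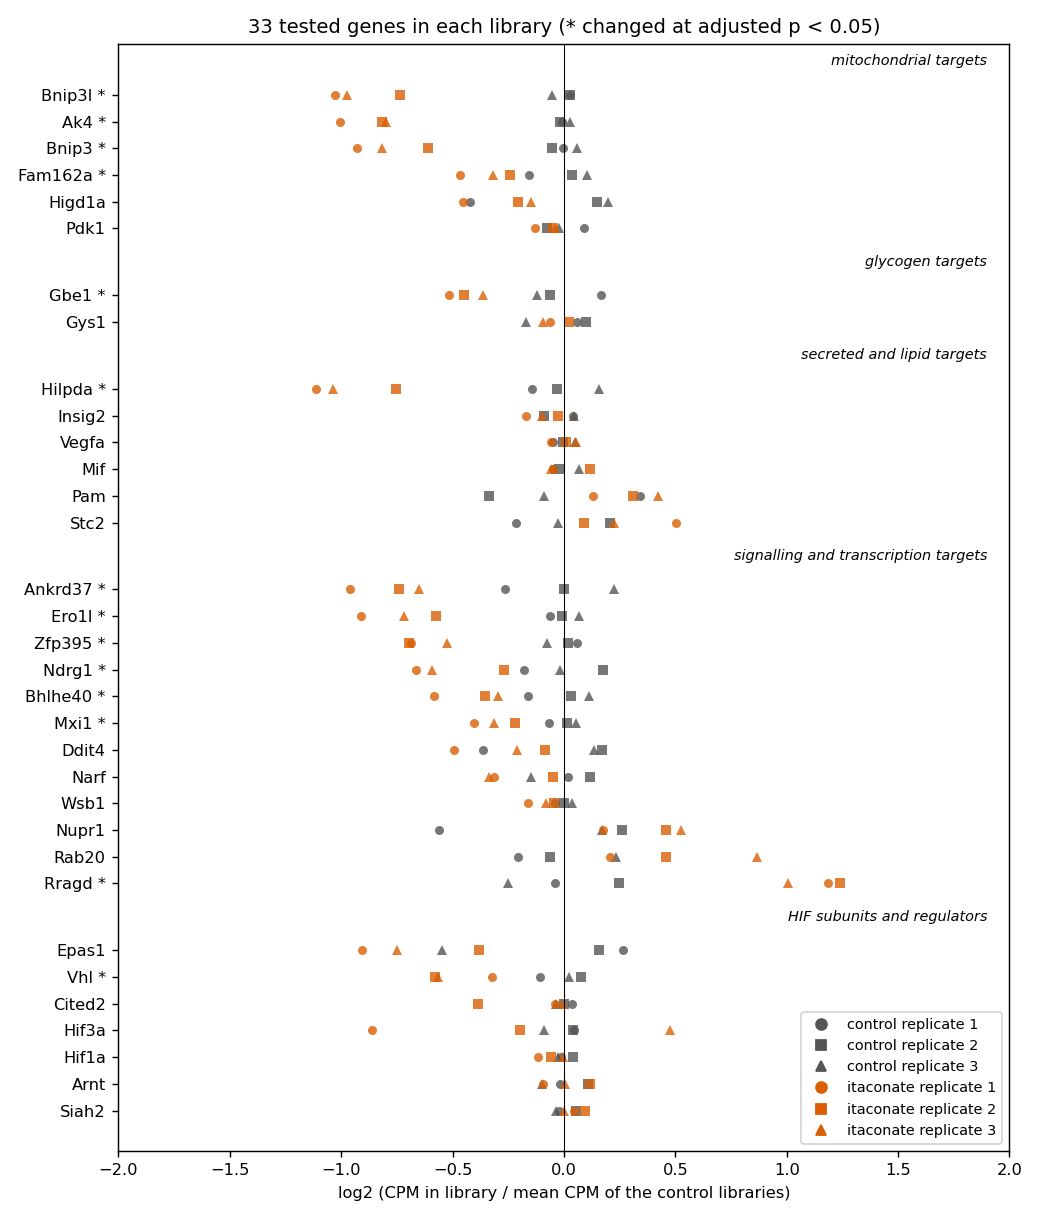
Level of each of the 33 tested genes in each of the 6 libraries, as log2 of its CPM over the mean CPM of the control libraries (horizontal axis), with a point per library, shaped by replicate and coloured by group; an asterisk marks genes called as changed. The itaconate points of Bnip3, Bnip3l, Ak4 and Hilpda lie well to the left of the control points, and those of Rragd to the right.

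Of the 4 glycogen genes, 2 could be tested and 1 of these, Gbe1, fell. Gbe1 encodes the branching enzyme of glycogen synthesis. It stood at 24.2, 20.7 and 19.9 CPM in the control libraries and 15.1, 15.9 and 16.8 CPM with itaconate. The groups did not overlap in CPM, and the fall was 1.36-fold (log2 fold change -0.44 ± 0.098 SE, adjusted p = 0.00999). Its call rests on the unit, and it was lost when effective length was an offset (adjusted p = 0.182). Gys1, the glycogen synthase of muscle and most other tissues, stood at 27.1, 27.9 and 23.1 CPM in the control libraries and 24.9, 26.4 and 24.4 CPM with itaconate. The groups overlapped in CPM, with a log2 fold change interval of -0.23 to 0.14 (adjusted p = 0.809). Ppp1r3c, a scaffold that brings a phosphatase to glycogen, was listed in the control libraries with 0, 0 and 1 expected counts and with 0 in every itaconate library. Stbd1, which tethers glycogen to membranes, had 8, 7 and 4 counts in the control libraries and 7, 5 and 4 with itaconate. Both were too low to test.

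Of 18 other glycogen genes tested, 2 fell and 3 rose, beside 5.36% and 6.68% of all genes tested. The median log2 fold change of the 18 was 0.11. Pgm1, a phosphoglucomutase gene, fell from 119 ± 4.63 to 93.0 ± 7.10 CPM (adjusted p = 0.00188). Ppp1r3b, another glycogen phosphatase scaffold, fell from 10.8 ± 0.611 to 7.86 ± 0.752 CPM (adjusted p = 0.0245). Ugp2, which makes the UDP-glucose that glycogen synthase uses, rose from 29.0 ± 1.33 to 36.6 ± 0.604 CPM (adjusted p = 0.00554). Gaa and Pygb, which break glycogen down in lysosomes and in the cytosol, also rose, Gaa from 59.7 ± 1.97 to 72.3 ± 4.12 CPM and Pygb from 110.5 ± 1.80 to 125 ± 1.92 CPM (adjusted p = 0.00900 and 0.0241). The called glycogen genes of this list thus moved both ways. The count of 5 called genes fell to 2 without control replicate 2 and without itaconate replicate 3, and to 3 without control replicate 3 or itaconate replicate 2. In the TPM and effective length offset fits, Ppp1r3b, Gaa and Pygb also lost their calls, with adjusted p of 0.0920, 0.0749 and 0.152 with the offset. Pgm1 was called in all 16 alternatives, and Ugp2 in all but both TPM fits (adjusted p = 0.117 on log2(TPM + 1)). For Ppp1r3b the adjusted p was 0.0947 without control replicate 2, 0.0510 without control replicate 3, 0.0734 without itaconate replicate 2 and 0.105 without itaconate replicate 3. For Gaa it was 0.0679 without control replicate 2 and 0.0551 without itaconate replicate 3. For Pygb it also missed the threshold, from 0.0696 to 0.118 without control replicates 2 or 3 or itaconate replicates 2 or 3.

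Among the 7 genes for secreted or lipid-handling proteins, 6 were tested and only Hilpda fell. Hilpda encodes a small lipid droplet protein that inhibits the main triglyceride lipase (chr6:29272488-29275446 on the plus strand). It stood at 25.1, 27.1 and 30.9 CPM in the control libraries and 12.8, 16.4 and 13.5 CPM with itaconate. No itaconate library came near a control library, and the fall of 1.95-fold was the largest among the 13 called (log2 fold change -0.96 ± 0.11 SE, adjusted p = 9.20e-05). It was called in all 16 alternatives. Vegfa, the vessel growth factor that is the classical secreted HIF-1 target, stood at 43.4, 44.8 and 46.6 CPM in the control libraries and 43.2, 45.2 and 46.6 CPM with itaconate. The values nearly coincide, and the interval of the log2 fold change was narrow, -0.13 to 0.14 (adjusted p = 0.990). A change of Vegfa as large as that of Hilpda lies outside this interval. Mif, a cytokine that is constitutively made by many cells, was the most abundant of the 36 genes per length. It stood at 825, 842 and 896 CPM in the control libraries and 826, 926 and 821 CPM with itaconate. The groups overlapped, with a log2 fold change interval of -0.11 to 0.12 (adjusted p = 0.971). The expected counts of Mif were not whole in any library, as RSEM gives where reads are shared between genes, so its values are uncertain.

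Insig2, which holds the sterol sensor of the lipid synthesis pathway in the endoplasmic reticulum, stood at 13.5, 12.4 and 13.6 CPM in the control libraries and 11.7, 12.9 and 12.3 CPM with itaconate. These overlapped (log2 fold change interval -0.32 to 0.11, adjusted p = 0.582). Its paralogue Insig1, a target of the sterol-responsive factors, fell from 162 ± 9.03 to 129 ± 5.44 CPM (log2 fold change -0.34, adjusted p = 0.00121). Stc2, a secreted glycoprotein, and Pam, which amidates secreted peptides, lay between 2.97 and 5.37 CPM in group means and were not called (adjusted p = 0.406 and 0.369). Adm, a vasodilator peptide, was too low to test, with 5, 3 and 11 counts in the control libraries and 0, 1 and 1 with itaconate. Vegfb, a paralogue of Vegfa, rose from 19.7 ± 0.169 to 25.4 ± 1.92 CPM (adjusted p = 0.0114). Its adjusted p was 0.0597 when control replicate 2 was left out and 0.0571 when itaconate replicate 2 was. With all libraries it was 0.0816 on log2(TPM + 1), 0.0805 on log2(TPM + 0.1) and 0.0514 with the effective length offset.

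Of the 12 genes for signalling and transcription, 6 fell and 1 rose. Ero1l, an oxidase that supplies disulphide bonds in the endoplasmic reticulum, stood at 214, 222 and 235 CPM in the control libraries and 119, 150.2 and 136 CPM with itaconate. The groups were well separated, and the fall was 1.66-fold (log2 fold change -0.73 ± 0.075 SE, adjusted p = 1.79e-04). Zfp395, a zinc finger transcription factor, stood at 32.0, 31.1 and 29.1 CPM in the control libraries and 19.1, 19.0 and 21.4 CPM with itaconate. Its highest itaconate library was below its lowest control library, and the fall was 1.55-fold (log2 fold change -0.63 ± 0.081 SE, adjusted p = 2.30e-04). Ankrd37, an ankyrin-repeat protein, was lower in level, at 6.57, 7.88 and 9.21 CPM in the control libraries and 4.06, 4.72 and 5.02 CPM with itaconate. It fell by 1.72-fold with no overlap (log2 fold change -0.78 ± 0.16 SE, adjusted p = 0.00645). These calls, for Ero1l, Zfp395 and Ankrd37, held in all 16 alternatives. Exons of Ankrd37 overlap those of Lrp2bp and Ufsp2 on the other strand, and no source used here states whether reads were counted by strand.

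Bhlhe40, Ndrg1 and Mxi1 fell by less, and their calls were lost without some single libraries. Bhlhe40 encodes a transcriptional repressor that shapes cytokine output in T cells. It stood at 242, 277 and 293 CPM in the control libraries and 181, 211 and 220.1 CPM with itaconate. The groups did not overlap, and the fall was 1.33-fold (log2 fold change -0.41 ± 0.090 SE, adjusted p = 0.0236). Without control replicate 2 its adjusted p was 0.0607, and without itaconate replicate 2 it was 0.0757. Ndrg1, a stress-responsive protein that restrains growth, stood at 45.4, 57.9 and 50.7 CPM in the control libraries and 32.4, 42.6 and 34.0 CPM with itaconate. Its lowest control and highest itaconate libraries lay close together, and the fall was 1.41-fold (log2 fold change -0.50 ± 0.12 SE, adjusted p = 0.0252). The adjusted p was 0.0605 without control replicate 2, 0.0678 without control replicate 3, 0.0674 without itaconate replicate 1 and 0.111 without itaconate replicate 3. Its paralogue Ndrg3 was not called (log2 fold change interval 0.01 to 0.28, adjusted p = 0.168).

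Mxi1 encodes a partner of MAX that opposes MYC. It stood at 25.5, 27.0 and 27.7 CPM in the control libraries and 20.2, 23.0 and 21.5 CPM with itaconate. The groups were separate, and the fall of 1.24-fold was the smallest called (log2 fold change -0.31 ± 0.080 SE, adjusted p = 0.0216). The adjusted p was 0.0749 without control replicate 2, 0.0562 without control replicate 3, 0.0746 without itaconate replicate 1 and 0.0731 without itaconate replicate 3. The call of Mxi1 was also lost in 3 fits that kept all libraries, with adjusted p of 0.0723 on log2(TPM + 1), 0.0722 on log2(TPM + 0.1) and 0.110 with the effective length offset. Other members of the MAX network moved in both directions. Mxd4 fell from 6.18 ± 0.336 to 4.03 ± 0.591 CPM (adjusted p = 0.0229) and Mnt from 48.6 ± 3.49 to 41.2 ± 1.01 CPM (adjusted p = 0.0336), while Mxd3 rose from 9.43 ± 0.535 to 12.6 ± 0.523 CPM (adjusted p = 0.0183). For Mxd4 the adjusted p was 0.0932 without control replicate 2 and 0.0967 without itaconate replicate 3. For Mnt it ran from 0.0815 to 0.143 without control replicate 2 or any 1 of the itaconate replicates. For Mxd3 it ran from 0.0531 to 0.0837 without control replicates 2 or 3 or itaconate replicates 2 or 3. All 3 also missed the threshold in both TPM fits and with the effective length offset, where the adjusted p was 0.246 for Mxd4, 0.173 for Mnt and 0.0810 for Mxd3. Among all 24 tested paralogues of the 36 genes, 4 fell and 2 rose, beside 5.36% and 6.68% of all genes tested. The median log2 fold change of the 24 was -0.03. The count of 6 called paralogues dropped to 2 without control replicate 2, itaconate replicate 2 or itaconate replicate 3.

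Rragd was the only one of the 36 genes called higher. It encodes a Rag GTPase, part of the complex that recruits the growth kinase mTORC1 to lysosomes when amino acids are present (chr4:32983037-33022180 on the plus strand). It stood at 4.64, 5.65 and 4.0 CPM in the control libraries and 10.8, 11.3 and 9.57 CPM with itaconate. The lowest itaconate library was well above the highest control library, and the rise was 2.23-fold (log2 fold change 1.16 ± 0.15 SE, adjusted p = 2.30e-04). In TPM, the deposited unit that also divides by gene length, its groups overlapped. Another Rag GTPase, Rraga, named here after its value was seen, was among the paralogues called lower, from 68.2 ± 0.922 to 59.7 ± 2.11 CPM (adjusted p = 0.0385). Its adjusted p ran from 0.0600 to 0.131 without control replicates 1 or 2 or any 1 itaconate replicate. With all libraries it was 0.0533 with DESeq2, 0.0508 with upper-quartile scaling, 0.0800 on log2(TPM + 1), 0.0791 on log2(TPM + 0.1) and 0.108 with the effective length offset.

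The other 5 genes of this group did not pass the test. Ddit4, an inhibitor of mTORC1 signalling that responds to many stresses, stood at 100.5, 146 and 142 CPM in the control libraries and 91.8, 122 and 112 CPM with itaconate. In both groups replicate 1 was the lowest, and the interval was wide, -0.76 to 0.25 (adjusted p = 0.491). Wsb1, a substrate adaptor of a ubiquitin ligase, stood at 79.6, 81.8 and 83.9 CPM in the control libraries and 73.2, 79.2 and 77.4 CPM with itaconate. These groups did not overlap, but the log2 fold change was only -0.09 (adjusted p = 0.299). Narf, a protein that binds prelamin A, stood at 17.5, 18.8 and 15.6 CPM in the control libraries and 13.9, 16.7 and 13.7 CPM with itaconate. The groups overlapped (log2 fold change -0.23, adjusted p = 0.195). Rab20, a small GTPase of endosomes, and Nupr1, a stress-induced chromatin protein, lay between 2.63 and 4.98 CPM in group means and were not called (adjusted p = 0.104 and 0.318).

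Among the HIF subunits and regulators, 1 of 7 fell, and it was Vhl. Hif1a (chr12:73901375-73947530 on the plus strand) stood at 325, 337 and 321 CPM in the control libraries and 302, 315 and 327 CPM with itaconate. Itaconate replicate 3 lay among the control libraries, and the interval of the log2 fold change was -0.16 to 0.04 (adjusted p = 0.468). In TPM, Hif1a stood at 96.1, 98.5 and 93.4 in the control libraries and 86.6, 84.3 and 89.2 with itaconate, without overlap. On log2(TPM + 1) its log2 fold change was -0.15 (limma adjusted p = 0.187), beside a median of -0.05 over all genes tested. Its exons are overlapped by other annotated genes on both strands, and its expected counts were not whole in 5 of the 6 libraries. Arnt stood at 43.0, 47.0 and 40.7 CPM in the control libraries and 40.9, 47.2 and 43.7 CPM with itaconate. The groups were intermingled, with an interval of -0.15 to 0.17 (adjusted p = 0.936). The other labile subunits were close to absent. Epas1, the subunit of HIF-2, had 21, 15 and 14 counts in the control libraries and 7, 9 and 9 with itaconate (adjusted p = 0.389). In CPM its groups overlapped, at 0.780, 0.725 and 0.444 in the control libraries and 0.346, 0.499 and 0.386 with itaconate. Hif3a, whose product can lack the activation domain, had 30, 23 and 32 counts in the control libraries and 12, 17 and 35 with itaconate (adjusted p = 0.929). Per length, Hif1a averaged 96.0 ± 2.59 TPM in the control libraries, beside 17.1 ± 2.55 TPM for Arnt, 0.273 ± 0.242 TPM for Epas1 and 0.223 ± 0.0208 TPM for Hif3a.

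Vhl, the recognition subunit of the ligase that marks HIF subunits for degradation, stood at 23.1, 26.2 and 25.2 CPM in the control libraries and 19.8, 16.6 and 16.8 CPM with itaconate (chr6:113623959-113631633 on the plus strand). The groups did not overlap, and the fall was 1.40-fold (log2 fold change -0.48 ± 0.094 SE, adjusted p = 0.00431). Fitted on log2(TPM + 1), its adjusted p was 0.0634. Siah2, a ubiquitin ligase that acts on the prolyl hydroxylases, stood at 50.8, 53.5 and 50.3 CPM in the control libraries and 53.1, 55.0 and 51.5 CPM with itaconate. These overlapped (interval -0.08 to 0.17, adjusted p = 0.678). Cited2, which competes with HIF subunits for their coactivator, stood at 32.2, 31.4 and 30.6 CPM in the control libraries and 30.5, 24.0 and 31.3 CPM with itaconate. Itaconate replicate 2 was low and the other itaconate libraries lay near the control ones (interval -0.33 to 0.07, adjusted p = 0.404).

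**Figure D4:**
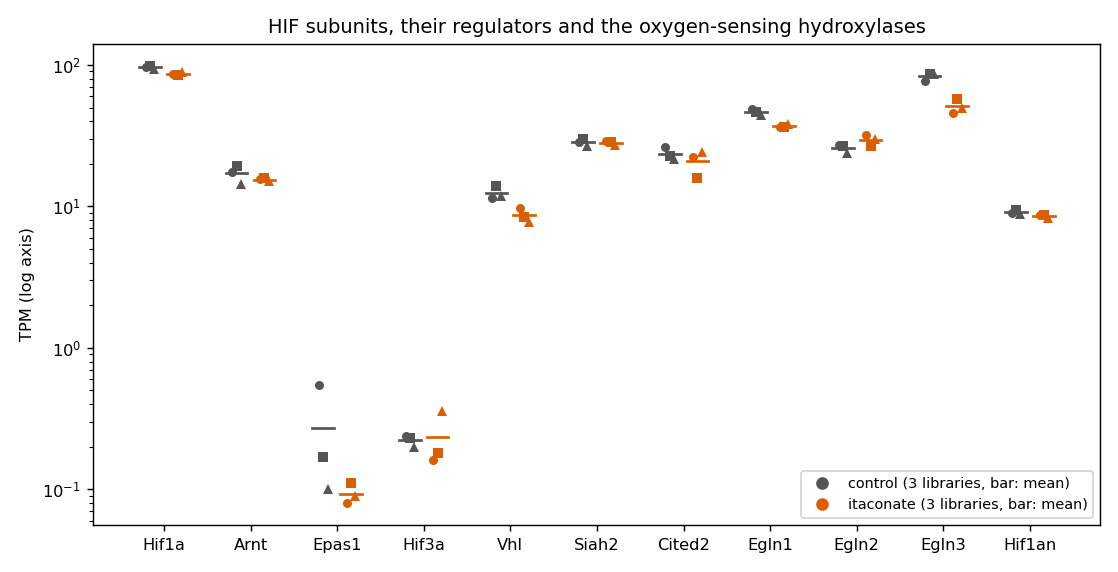
Level of the HIF subunits, of their regulators and of the oxygen-sensing hydroxylases in TPM on a logarithmic vertical axis, with a point for each of the 3 libraries of a group and a bar for their mean. Epas1 and Hif3a lie far below Hif1a and Arnt. The groups of Hif1a, Vhl, Egln1, Egln3 and Hif1an do not overlap in this unit, with itaconate lower. Over all genes tested, the median log2 fold change on log2(TPM + 1) was -0.05.

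Of 20 other genes of oxygen sensing and HIF turnover that were tested, 3 fell and 1 rose. Over all genes tested, 5.36% were called lower and 6.68% higher. The median log2 fold change of the 20 was -0.02. Egln3, itself a HIF-1 target, fell from 161 ± 12.9 to 103 ± 14.5 CPM (log2 fold change -0.64 ± 0.10 SE, adjusted p = 0.00759), and Egln1, the main hydroxylase of HIF-1 and also a target, fell from 125 ± 2.65 to 104 ± 4.49 CPM (log2 fold change -0.26 ± 0.051 SE, adjusted p = 0.00431). Egln2, not usually counted as a HIF-1 target, rose from 37.8 ± 1.61 to 45.2 ± 2.86 CPM (log2 fold change 0.26 ± 0.068 SE, adjusted p = 0.0219). The calls of Egln1 and Egln3 held in all 16 alternatives. The call of Egln2 was lost in 4 of the 6 fits that left out a library, with adjusted p of 0.0581 without control replicate 2, 0.0716 without control replicate 3, 0.0775 without itaconate replicate 1 and 0.0848 without itaconate replicate 3. It was also lost in the fits with other units, with adjusted p of 0.300 on log2(TPM + 1), 0.300 on log2(TPM + 0.1) and 0.0990 with the effective length offset, and in TPM its groups overlapped. Ep300, the coactivator that HIF subunits recruit, fell from 81.5 ± 4.75 to 65.1 ± 9.02 CPM (adjusted p = 0.0379), and this call too was lost in 4 of those 6 fits, with adjusted p from 0.114 to 0.140 without control replicates 1 or 2 or itaconate replicates 2 or 3. For Ep300 it was 0.458 on log2(TPM + 1), 0.455 on log2(TPM + 0.1) and 0.520 with the effective length offset. Hif1an, which blocks coactivator binding by hydroxylating an asparagine, was not called (interval -0.17 to 0.09, adjusted p = 0.737). The count of 4 called genes dropped to 2 without control replicate 2 or itaconate replicate 3.

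A list of 28 further HIF targets outside glycolysis, which shares Egln1 and Egln3 with the previous one, moved mainly downward. Of its 20 tested genes 10 fell and 1 rose, beside 5.36% of all tested genes lower and 6.68% higher. The median log2 fold change of the 20 was -0.31. This list too was drawn up with earlier results of these data known, so its counts are a description. Tfrc, the transferrin receptor that brings iron into proliferating cells, fell from 756 ± 24.1 to 489 ± 17.4 CPM (log2 fold change -0.63 ± 0.047 SE, adjusted p = 4.30e-06). Kdm3a, a histone demethylase that also uses 2-oxoglutarate, fell from 76.8 ± 1.18 to 59.9 ± 1.15 CPM (log2 fold change -0.36 ± 0.053 SE, adjusted p = 7.49e-04). Ccng2, a cyclin that slows the cell cycle, fell from 22.6 ± 1.77 to 14.5 ± 1.67 CPM (log2 fold change -0.64 ± 0.10 SE, adjusted p = 0.00121). All 3 calls held in all 16 alternatives. Pdgfb, a growth factor, was the gene called higher, from 12.2 ± 1.45 to 16.6 ± 2.98 CPM (adjusted p = 0.0486). Its groups overlapped, and its call was lost without control replicate 1, control replicate 2, itaconate replicate 2 or itaconate replicate 3, with adjusted p from 0.125 to 0.193. With all libraries it was lost in 5 more fits, with adjusted p of 0.0501 with RLE scaling, 0.0661 with limma-voom, 0.416 on log2(TPM + 1), 0.416 on log2(TPM + 0.1) and 0.291 with the effective length offset.

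In each group some libraries often lay at the edge. Among the 13 genes that fell, itaconate replicate 1 was the lowest of its group in 11 and itaconate replicate 2 the highest in 7. Control replicate 3 was the highest of its group in 8, and control replicate 1 was the lowest in 8. Measured as the median log2 deviation of these 13 genes from the control mean, the itaconate libraries stood at -0.67, -0.57 and -0.58 in replicate order. The control libraries stood at -0.07, 0.01 and 0.05. These 13 genes were picked by their difference, so the gap between the groups is a description. Over all 33 tested genes the itaconate libraries stood at -0.31, -0.13 and -0.12, and over the genes not called at -0.09, -0.03 and 0.00. Leaving out 1 library at a time left between 9 and 14 of the 33 tested genes called lower, the fewest without control replicate 2. Without that library the number of all genes called fell from 1487 to 726, and to 835 and 896 without itaconate replicates 3 and 2.

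The levels of the 36 genes spanned a wide range per length. In the control libraries 6 genes averaged over 100 TPM, 19 lay between 10 and 100 TPM, 6 between 1 and 10 TPM and 5 under 1 TPM. Mif led with 3517 ± 134 TPM, followed by Fam162a with 237 ± 7.72 TPM and Higd1a with 130.2 ± 25.6 TPM. Higd1a, Bhlhe40, Ddit4 and Ero1l followed each other between 130 and 102 TPM, and the spread of Higd1a and Ddit4 over libraries was wider than the steps between them. The mitophagy receptors were nearly equal, with 99.8 ± 19.1 TPM for Bnip3l and 94.5 ± 2.55 TPM for Bnip3 in the control libraries. With itaconate they remained level with each other, at 50.1 ± 0.0950 and 51.4 ± 4.30 TPM. The small SD of Bnip3l holds in TPM only, as its CPM there were 50.6, 62.0 and 52.5. Its effective lengths in those libraries were 1249, 1445 and 1247 bases. The expected counts of Bnip3l were not whole in 5 of the 6 libraries.

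The unit changed the reading of a few genes. TPM divides by an effective length that was estimated anew in each library. Over all genes tested, the median log2 fold change was -0.05 on log2(TPM + 1), beside 0.01 in the main fit. The share of all genes without overlap in TPM was not computed. Of the 33 tested genes, 27 were alike in CPM and TPM as to whether the groups overlapped, and 12 of the 13 that fell also did not overlap in TPM. The 6 that differed were Gbe1 and Rragd, which overlapped only in TPM, and Pdk1, Gys1, Rab20 and Hif1a, which overlapped only in CPM. Gbe1 stood at 11.4, 9.71 and 11.4 TPM in the control libraries and 6.93, 6.86 and 9.85 TPM with itaconate. Rragd stood at 1.24, 2.78 and 1.02 TPM in the control libraries and 2.81, 4.73 and 2.43 TPM with itaconate. Replicate 2 was the highest in both groups, and the control replicate 2 value fell among the itaconate values. The effective length of Rragd was 4749, 2586 and 4775 bases in the control libraries and 4772, 2786 and 4671 bases with itaconate, so the replicates numbered 2 were divided by a shorter length. On log2(TPM + 1) with limma the adjusted p of Rragd was 0.200, and with effective length as an offset in edgeR it was 0.176. Pdk1 went the other way. In the control libraries it stood at 94.1, 85.4 and 90.2 TPM, above all of the 77.2, 68.8 and 74.6 TPM with itaconate, while its CPM overlapped. Gys1 stood at 10.3, 10.3 and 11.9 TPM in the control libraries and 9.95, 9.58 and 8.42 TPM with itaconate, and Rab20 at 3.30, 3.59 and 4.21 and 4.23, 4.76 and 6.43 TPM. The longest effective length over the shortest was 1.85 for Rragd and 1.46 for Gys1, but 1.05 for Hif1a and 1.03 for Rab20. The log2 fold change of Pdk1 on log2(TPM + 1) was -0.29 (adjusted p = 0.0622). Which isoforms the cells made was not tested.

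**Figure D5:**
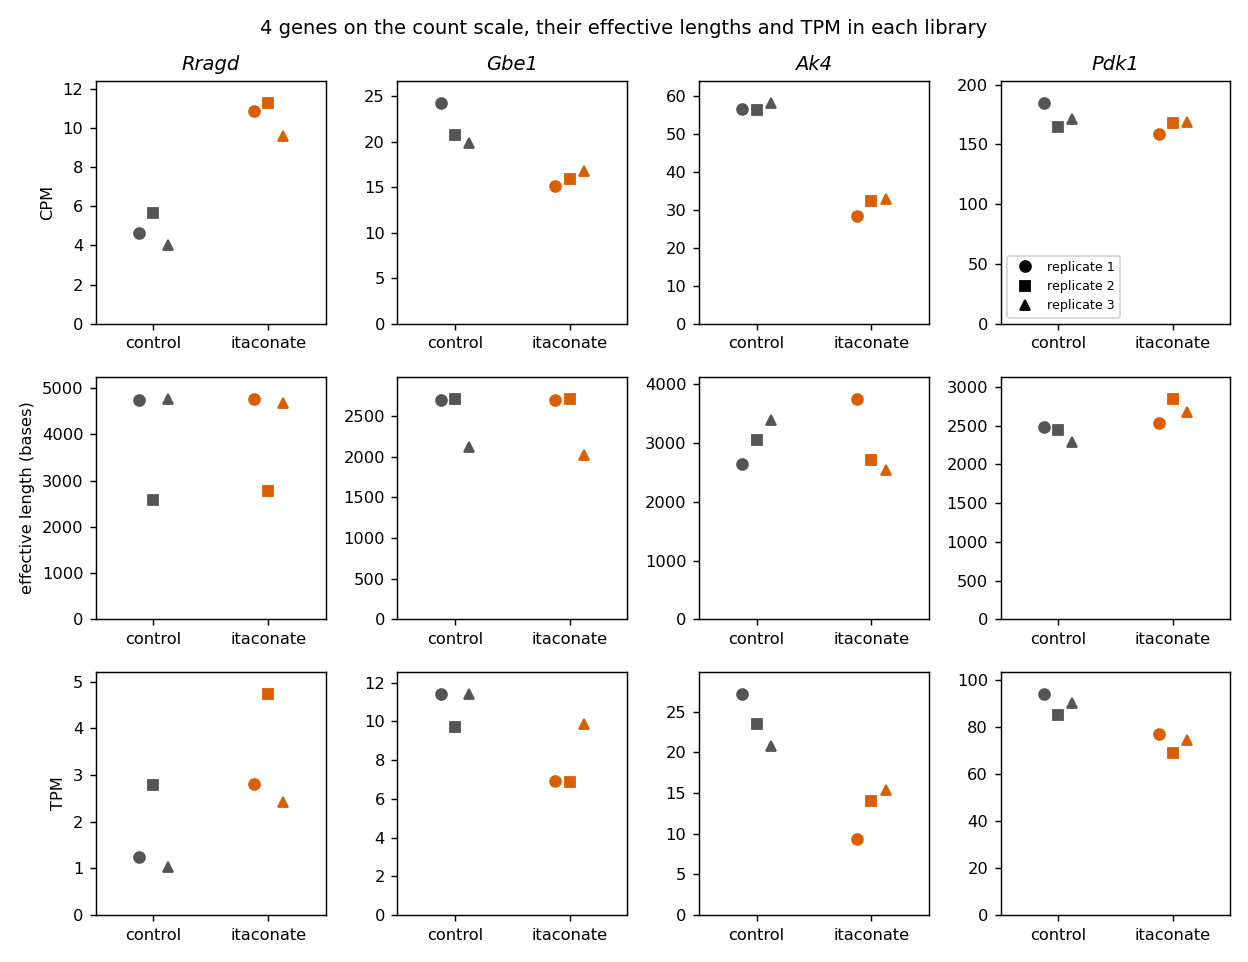
CPM (top), effective length in bases (middle) and TPM (bottom) of Rragd, Gbe1, Ak4 and Pdk1, with a point for each of the 3 libraries of a group, shaped by replicate. Rragd separates the groups in CPM and not in TPM, where both replicates numbered 2 have short effective lengths, and Ak4 separates them in both units.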

How the data were processed

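Values came from 1 RSEM gene table for each of the 6 libraries (3 control, 3 itaconate). The authors deposited, per the file headers, expected counts, TPM and an effective length for each gene. Bowtie 0.12.2 and both mm8 and mm10 are named, without their roles, in the submitters' processing notes. The annotation and strand setting used were not given in the sources used here. Expected counts were rounded to whole numbers and filtered with filterByExpr in edgeR 4.0.16 (minimum count 10, minimum total 15; R 4.3.3), which kept 12350 of 55487 genes. They were scaled by trimmed mean of M-values and tested with the robust quasi-likelihood F test, itaconate against control, with Benjamini-Hochberg adjustment over all tested genes. CPM printed are from the same scaling, SE is the log2 fold change divided by the root of F, and intervals are at 95%.

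The fit was tested on simulated data. The 36 genes and all gene lists were chosen with earlier results of these data known. All 36 are named; values in each library are given for genes called with a change of at least 1.2-fold, for HIF subunits and regulators, and for genes of at least 10 CPM that did not pass. Of other lists, up to 3 genes per direction with the smallest adjusted p are named, and 10 genes listed by symbol, 1 of which is not reported here. Alternatives were DESeq2 1.42.0, limma 3.58.1 (voom, and TPM with a pseudocount of 1 or 0.1), other scalings and filters, an effective length offset, a replicate block and leaving out each library. Gene positions are from GENCODE M21 (GRCm38), and promoter windows from RefSeq (GRCm38.p6). Exons of 10 of the 36 genes overlap a gene on the opposite strand and those of 2 a gene on the same strand, so their reads may not be told apart. Same-numbered libraries deviated from their group means with correlations of 0.154, 0.0398 and 0.0308 and were not treated as pairs. With 3 libraries a group, a permutation test of a single gene cannot give a two-sided p under 0.10, so none is given.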

Additional observations from a re-analysis of the deposited data

How the results depend on the processing

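Over 16 alternatives, 500 of 527 recomputed results for the tested HIF-1 genes kept their direction and their side of the threshold, 23 lost the call, 4 gained it and none reversed; 24 values that passed neither way changed sign. The 13 genes called lower became 10 with both TPM fits and with the effective length offset, and ranged from 9 to 14 when a library was left out. Rragd was not called higher in those TPM and offset fits (0 genes). The median of the 33 tested genes was -0.31 with log2(TPM + 0.1), where that of all tested genes was -0.06. Without single libraries the median of the 33 ran from -0.29 to -0.16. Genes called in all numbered 567 with the offset, 356 with log2(TPM + 0.1) and 340 with log2(TPM + 1), and 726 to 1400 without single libraries, beside 1487. Genes called higher were 825 of 1487, 325 of 567 with the offset, 141 of 356 with log2(TPM + 0.1) and 133 of 340 with log2(TPM + 1). Oxygen sensing genes called were 2 in the offset and TPM fits (2 to 3 without single libraries); mitophagy and autophagy genes 0 in these fits; other glycogen genes 2 with the offset and 1 with TPM (2 to 5); paralogues 1 with the offset, 2 with TPM, 10 without a low-count filter (2 to 6); other HIF targets 7 with log2(TPM + 1) (8 to 11). The TPM fits also change the scaling and the test; the cause of the moves was not tested.

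With a replicate block, 2419 genes were called in all, 15 of the 36 HIF-1 genes lower and 2 higher, 7 oxygen sensing genes, and 2 mitophagy and autophagy genes. Higd1a (adjusted p = 0.00863), Ddit4 (adjusted p = 0.00126) and Rab20 (adjusted p = 0.0447) gained a call. The numbers are not known to pair the libraries. Control replicates 1 and 2 correlated best with the itaconate replicate of their own number (0.154 and 0.0398). Control replicate 3 correlated best with itaconate replicate 2 (0.102), above its own number (0.0308). The remaining pairs of unlike number ran from -0.139 to -0.0130. Counts of Ppp1r3c, Stbd1 and Adm were too low to test, and Epas1 and Hif3a had at most 35 counts in a library.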

Other observations

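A few more of the other HIF targets are named here after their values were seen. P4ha2, a collagen prolyl hydroxylase subunit, stood at 4.31, 5.61 and 5.33 CPM in the control libraries and 0.891, 2.22 and 0.858 CPM with itaconate (edgeR log2 fold change -1.97, adjusted p = 0.00169). Every itaconate library was well below every control library, and its call held in all 16 alternatives. P4ha1, its paralogue, was much higher in level and fell less, from 90.8 ± 4.17 to 76.3 ± 3.81 CPM (log2 fold change -0.25, adjusted p = 0.0118). Without itaconate replicate 3 the adjusted p of P4ha1 was 0.0539, on log2(TPM + 1) it was 0.0510 and with the effective length offset 0.0633. Plod2, a collagen lysyl hydroxylase, fell from 11.5 ± 1.30 to 7.43 ± 0.339 CPM (adjusted p = 0.00427), and its adjusted p was 0.0558 on log2(TPM + 1) and 0.0567 on log2(TPM + 0.1). Plod1, another enzyme of this kind, was not called (log2 fold change -0.07, adjusted p = 0.840). The chemokine receptor gene Cxcr4 stood at 7.20, 6.14 and 7.21 CPM in the control libraries and 2.33, 4.05 and 3.13 CPM with itaconate (log2 fold change -1.12, adjusted p = 0.00188), again without overlap. Vldlr, a lipoprotein receptor, fell from 2.94 ± 0.539 to 1.32 ± 0.492 CPM (adjusted p = 0.0170), but its call was lost in 4 of the 6 fits that left out a library, with adjusted p from 0.0529 to 0.0739 without control replicates 1 or 3 or itaconate replicates 1 or 3. With all libraries its adjusted p was 0.325 on log2(TPM + 1), 0.330 on log2(TPM + 0.1) and 0.344 with the effective length offset, its log2 fold change on log2(TPM + 1) was -0.33, and its TPM overlapped between the groups.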
